A study of Homo sapiens with 5 samples.

Results

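The HOX genes encode the homeodomain transcription factors that set position along the body axis, and their transcripts were used to ask whether any cells of a GnRH neuron differentiation had a caudal identity. The members were 38 genes named HOXA, HOXB, HOXC or HOXD followed by a number alone, among the 33538 genes listed for D22, D24 and D26 and the 36601 listed for the earlier days. The members were chosen by name and not by level. The cells were WA09 human embryonic stem cells, an established line of wild type genotype, and were profiled by 10x Genomics 3′ single-cell RNA sequencing under 8 conditions. D0 was undifferentiated. D5_dSMADi and D10_dSMADi received dual SMAD inhibition with dorsomorphin and SB431542, and D5_XAV939 and D10_XAV939 received the same plus 10 µM XAV939, a tankyrase inhibitor that blocks Wnt signalling. D22, D24 and D26 followed the protocol without XAV939, in which dual SMAD inhibition is followed by FGF8, a freeze and thaw of the progenitors, and the Notch inhibitor DAPT. The 5 earlier conditions were tagged, pooled and sequenced as 1 library, and were deposited as 1 matrix each, while D22, D24 and D26 were separate libraries. The cells of each condition are called a library below, also for the 5 parts of the pool. Day and run cannot be told apart between these 2 sets. Each condition was 1 sample of 1 line with no replicate.

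HOX genes lie in 4 clusters, and their order along the chromosome matches the order in which they act along the embryo. Members of the low paralogue groups mark the hindbrain, those of higher groups mark the spinal cord and trunk, and forebrain and midbrain form without HOX expression. Retinoic acid, FGF and Wnt signals open the clusters from the 3′ end, CDX factors carry the signal in the tail bud, and PBX and MEIS proteins are the DNA-binding partners of the HOX proteins. IRX genes are expressed behind the front of the forebrain, and EN1, EN2, GBX2, PAX2 and PAX5 mark the boundary between midbrain and hindbrain. On GRCh38 with GENCODE 44, the 10 HOXA members lay on chromosome 7 from 27100354 to 27200091 and the 10 HOXB members on chromosome 17 from 48528526 to 48728750. The 9 HOXC members lay on chromosome 12 from 53938831 to 54056030 and the 9 HOXD members on chromosome 2 from 176092721 to 176190907.

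The promoters below are shown because they belong to the member with most transcripts, to a boundary gene that the IRX cells transcribed, and to a start of RARB, a retinoic acid receptor gene taken up at D10 after its values had been seen. Each is the 250 bases before the RefSeq start on GRCh38.p14, read 5′ to 3′ on the gene's plus strand. For HOXD8 (chr2:176129455-176129704) and EN2 (chr7:155457879-155458128) the capitals mark the dinucleotide CG. For RARB (chr3:25428013-25428262) they mark a direct repeat, GGTTCA and AGTTCA 5 bases apart, a known form of retinoic acid response element. That start of RARB was chosen because it holds the repeat.
HOXD8: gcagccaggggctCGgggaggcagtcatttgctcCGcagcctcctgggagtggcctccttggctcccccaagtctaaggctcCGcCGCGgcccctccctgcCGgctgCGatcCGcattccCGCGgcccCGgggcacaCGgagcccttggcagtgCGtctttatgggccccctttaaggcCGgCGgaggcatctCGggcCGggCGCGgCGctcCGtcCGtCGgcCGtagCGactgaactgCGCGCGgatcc
EN2: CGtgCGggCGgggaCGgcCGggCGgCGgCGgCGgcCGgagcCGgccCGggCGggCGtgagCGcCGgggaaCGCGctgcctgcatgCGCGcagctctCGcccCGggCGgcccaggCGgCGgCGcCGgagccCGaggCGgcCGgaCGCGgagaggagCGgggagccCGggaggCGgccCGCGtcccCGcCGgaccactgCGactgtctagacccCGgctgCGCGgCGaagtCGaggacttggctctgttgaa
RARB: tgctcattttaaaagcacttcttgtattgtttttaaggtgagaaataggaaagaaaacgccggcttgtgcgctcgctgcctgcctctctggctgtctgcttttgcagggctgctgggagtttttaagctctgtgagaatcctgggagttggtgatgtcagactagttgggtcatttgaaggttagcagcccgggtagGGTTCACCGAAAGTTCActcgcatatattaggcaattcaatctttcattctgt
The HOXD8 window held 28 CG and that of EN2 45, against a median of 11 over the 35116 promoter windows of all genes. Of the members, 20 had a RefSeq window, with 27 windows in all. Their median was 19 CG, and 13 held at least 20, which 32.45% of all windows did. The direct repeat, searched in this exact form on both strands, was in 6 of the 35116 windows (0.0171%) and in 0 of the 27 member windows. With a share this small, 0 of 27 says nothing about the members.

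HOX transcripts were near the limit of detection in every library. Over all 8 libraries, 62 of 679215711 UMIs (0.0913 CPM, counts scaled to 1000000 UMIs) fell on the 38 members, and 60 of 40513 cells held them. D0 had 5 HOX UMIs (0.0659 CPM, interval 0.0214 to 0.154). D5_dSMADi had 3 (0.0377 CPM, interval 0.00776 to 0.11) and D5_XAV939 had 2 (0.0231 CPM, interval 0.00279 to 0.0833). Levels were scaled to all UMIs of the cells kept, and the 95% intervals are exact Poisson ones for counting error alone. D10_dSMADi had 4 (0.0508 CPM, interval 0.0138 to 0.13) and D10_XAV939 had 5 (0.0861 CPM, interval 0.028 to 0.201). D22 had 23 (0.176 CPM, interval 0.112 to 0.265), D24 had 10 (0.143 CPM, interval 0.0684 to 0.262) and D26 had 10 (0.101 CPM, interval 0.0482 to 0.185). D22 stood highest, and its interval overlapped those of D0, D10_dSMADi, D10_XAV939, D24 and D26 but not those of the D5 libraries, which came from the other run.

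For scale, 3 UMIs, the most that a true count of 0 was taken to allow, came to between 0.023 CPM at D22 and 0.0517 CPM in D10_XAV939. The 10 forebrain factors, among them SIX3 and LHX2, summed to 110.5 CPM at D0, 382 CPM in D10_dSMADi and 1185 CPM at D24. The 9 genes of the HOX cofactor list, the PBX, MEIS and PKNOX genes, summed to between 272 CPM at D0 and 1202 CPM at D26. The partners of HOX proteins were thus well detected in libraries with almost no HOX transcript.

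**Figure D1:**
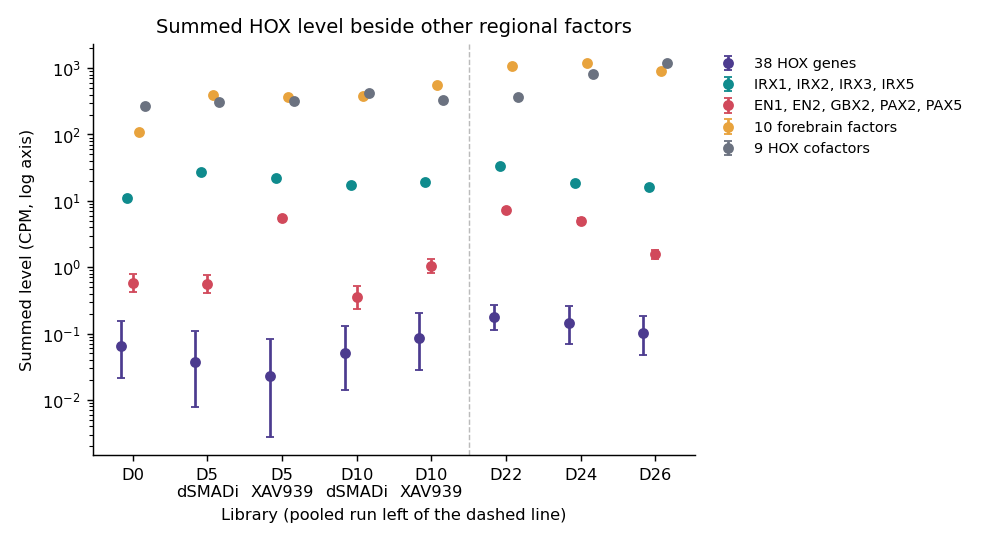
Summed level in CPM on a log axis (points, with exact Poisson intervals as bars) of the 38 HOX genes and of 4 other gene sets in each of the 8 libraries. The HOX points lie between 0.0231 and 0.176 CPM, below every other set in every library.

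Shares of cells were as low. HOX UMIs were in 5 of 1009 cells at D0 (0.496%, interval 0.161 to 1.15%) and in 22 of 9523 cells at D22 (0.231%, interval 0.145 to 0.35%). They were in 9 of 9107 cells at D24 (0.0988%) and in 10 of 11056 at D26 (0.0904%), with 2 to 5 cells in each library of D5 and D10. Depth differed between libraries, with a median of 69455 UMIs per cell at D0, 12179 at D22 and 7180 at D24. With each cell thinned to 10000 UMIs, 0 or 1 cell with a HOX UMI was left in each library of D0 to D10. With each cell thinned to 1500 UMIs, 2 cells were left at D22 (0.021%, interval 0.00254 to 0.0758%), 1 at D24 (0.011%, interval 0.000278 to 0.0612%) and 1 at D26 (0.00905%, interval 0.000229 to 0.0504%). At D22 and at D24, 1 cell each held 2 UMIs, and every other cell with HOX had a single UMI. Of the 40513 cells, 0 held UMIs of 2 different members. Only the cells with 2 UMIs could have shown this, so the count says little about whether members were transcribed together.

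Of the 38 members, 24 had 0 UMIs in the cells kept of all 8 libraries. They were HOXA2, HOXA3, HOXA4, HOXA5, HOXA6, HOXA7, HOXA9, HOXA10 and HOXA11, HOXB1, HOXB3, HOXB4, HOXB5, HOXB6 and HOXB8, HOXC8, HOXC10, HOXC11 and HOXC12, and HOXD3, HOXD4, HOXD10, HOXD11 and HOXD12. The list holds HOXA2, HOXB1, HOXA3, HOXB3 and HOXD3, which mark segments of the hindbrain. The HOXA cluster was the emptiest, with 2 UMIs over all libraries, both of HOXA13, and with 0 UMIs at D22, D24 and D26. In the barcodes left out by the filter on cells, HOXA7 had UMIs in D5_XAV939 and D10_XAV939 and HOXB6 in D10_XAV939, so that 22 members were at 0 over all barcodes. Of the 14 members detected, HOXC9 and HOXD13 had 1 UMI each in all.

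No member reached 100 UMIs in a library, and 5 reached 5 UMIs over all of them. HOXD8, a gene of the middle of the HOXD cluster that acts in the trunk, had 9 UMIs at D22, 3 at D24, 1 at D26 and 0 in each library of D0 to D10. HOXB2, a gene of the hindbrain segments, had 7 UMIs at D22, 1 at D24, 1 at D26, 1 in D10_XAV939 and 0 in the others. Most UMIs of both genes lay at D22. HOXC13, a gene of the tail end and of hair and nails, had 5 UMIs at D26 and 1 each at D24, in D5_dSMADi and in D10_XAV939. HOXD9, a gene of the trunk and limbs, had 2 UMIs at each of D22, D24 and D26 and 0 before. HOXC5 had 4 UMIs at D22 and 1 in D5_dSMADi, and it shared 67.3% of its exonic bases with 2 other genes of the same strand, so its reads cannot be fully assigned. In GENCODE 44, 16 of the 38 members shared exonic bases in this way.

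The remaining members had 4 UMIs or fewer. HOXC4 had 3 UMIs in D10_dSMADi and 1 in D5_XAV939. HOXB7 had 2 at D0 and 1 in D10_XAV939, HOXB9 had 2 at D24 and 1 at D26, and HOXD1 had 2, both at D0. HOXA13, HOXB13 and HOXC6 had 2 each, in different libraries. By position in the clusters, paralogue groups 1 to 4 had 7 UMIs at D22, groups 5 to 8 had 13 and groups 9 to 13 had 3. At D26 these counts were 1, 1 and 8. These counts are too few to order the groups within a library.

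**Figure D2:**
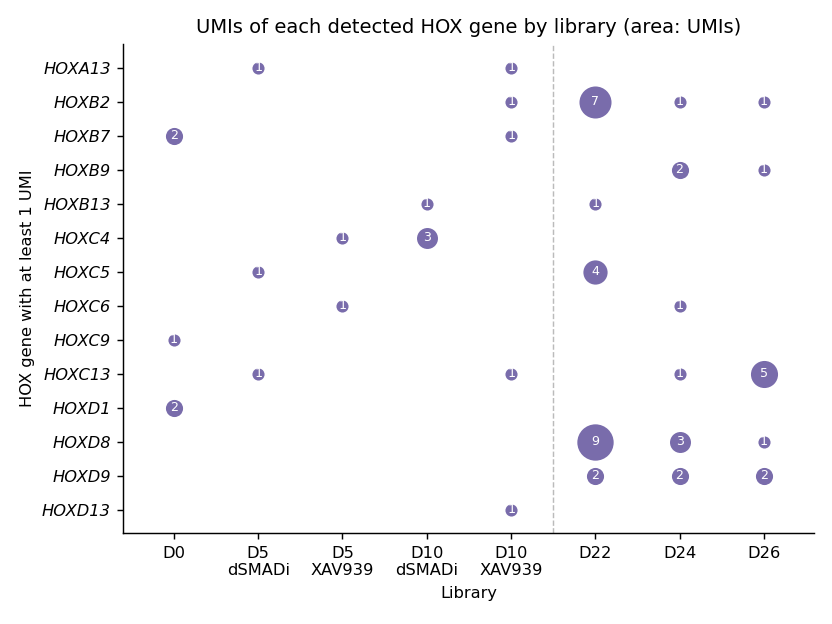
UMIs of each of the 14 HOX genes detected, by library, with the count printed in each point and the point's area in proportion to it; an empty place is 0 UMIs. The largest counts are 9 UMIs of HOXD8 and 7 of HOXB2 at D22 and 5 of HOXC13 at D26.

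Set among all genes, the members were in the lower part but not at a level of their own. The most abundant member of a library had between 1 and 9 UMIs, and between 36.6% of the genes listed (D5_XAV939) and 43.9% (D22) had no more UMIs than that. Genes with 0 UMIs were 26.2% of those listed at D22 and 31.7% in D10_XAV939, while 33 of 38 members were at 0 in both. Over these libraries, the median gene had between 8 and 23 UMIs.

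The cells with IRX transcripts were the candidates for a more caudal identity. At D22, 1420 of 9523 cells had at least 1 UMI of IRX1, IRX2, IRX3 or IRX5 and held 8 HOX UMIs (0.359 CPM, interval 0.155 to 0.708), against 15 in the 8103 cells without (0.139 CPM, interval 0.0776 to 0.229). The log2 ratio was 1.37 (interval -0.07 to 2.70). At D24, 715 IRX cells held 2 HOX UMIs (0.333 CPM, interval 0.0403 to 1.2) and the 8392 others held 8 (0.125 CPM), a log2 ratio of 1.42 (interval -1.86 to 3.74). At D26, 589 IRX cells held 1 (0.161 CPM, interval 0.00407 to 0.896) and the 10467 others held 9 (0.0965 CPM), a log2 ratio of 0.74 (interval -4.72 to 3.59). The 3 ratios were above 0, and no interval excluded 0. At D22 the interval did exclude 0 with a stricter split of at least 2 IRX UMIs (log2 ratio 2.03, interval 0.38 to 3.48), without the highest doublet scores (1.63, interval 0.17 to 2.98) and without HOXD8 (1.86, interval 0.06 to 3.58). With that stricter split the IRX cells of D24 and D26 held 0 HOX UMIs.

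Counts of named members were small as well. At D22 the IRX cells held 4 of the 7 UMIs of HOXB2, 2 of the 9 of HOXD8, 1 of the 4 of HOXC5 and 1 of the 2 of HOXD9. HOXB2 was at 0.18 CPM in the IRX cells of D22 (interval 0.0489 to 0.46) and at 0.0277 CPM in the others (interval 0.00572 to 0.0811). These intervals overlapped, and at D24 and D26 the only UMIs of HOXB2 lay in cells without IRX. At D24 both UMIs in IRX cells were of HOXB9 and lay in 1 cell, and at D26 the single UMI was of HOXD9. All 5 UMIs of HOXC13 at D26 lay in cells without IRX. At D22, 8 of the 22 cells with HOX UMIs had an IRX UMI, against 14.9% of all cells. At D24 this was 1 of 9, against 7.85%, and at D26 it was 1 of 10, against 5.33%. Over the 3 days it was 10 of 41 (24.4%, interval 12.4 to 40.3%), against 9.18% of all cells. D22 had the largest shares of both IRX cells and HOX cells. Over D24 and D26 it was 2 of 19 (10.5%, interval 1.3 to 33.1%), against 6.47%. IRX cells were deeper, with a median of 13259 UMIs against 12030 at D22, 7355 against 7167 at D24 and 9496 against 8443 at D26, and the part of depth in these shares was not tested.

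UMIs summed by library and IRX split were tested with edgeR, with day as a block and Benjamini-Hochberg adjustment over 21066 genes and the 4 IRX genes that set the split, which are left out of all counts of called genes. The 3 days are not replicates of a condition, and the p measures how alike the difference was over days. Of all genes tested, 1.50% were called higher and 1.80% lower in IRX cells at an adjusted p under 0.05. HOXD8 was the only member with the 10 UMIs needed for the test, and edgeR did not call it (log2 fold change 0.05, SE 1.14, adjusted p = 0.995). Its unadjusted p was 0.966, while 3627 of the 21066 genes had one under 0.05, and DESeq2 set no adjusted p for it (unadjusted p = 0.878). With genes of at least 1 UMI tested, 8 members entered and 0 were called, while 2.19% of the 26560 genes were called higher and 2.8% lower. With shares this small, 0 of 8 says little about the members. HOXD8 had 0.0898 CPM in the IRX cells of D22 and 0.0647 CPM in the others, 0 and 0.0468 CPM at D24, and 0 and 0.0107 CPM at D26, so that the groups of days overlapped.

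As a group, the IRX cells had more transcripts of genes of the midbrain-hindbrain boundary. Of the 12 genes of that list outside the HOX clusters, 10 could be tested, 5 were called higher in IRX cells and 0 lower, with a median log2 fold change of 3.41 beside -0.09 over all genes. EN2, an engrailed factor of the midbrain and front hindbrain, was at 16.5, 19.3 and 4.18 CPM in IRX cells of D22, D24 and D26, and at 0.194, 0.624 and 0.0215 CPM in the others. Its log2 fold change was 5.77 (SE 0.38, adjusted p = 3.4e-04 by edgeR). GBX2, which sets the hindbrain side of the boundary, was at 20.5, 7.16 and 5.95 CPM against 0.166, 0.405 and 0.601 CPM (log2 fold change 4.72, SE 0.64, adjusted p = 0.00913 by edgeR). EN1, PAX2 and PAX5 rose by 4.50, 5.92 and 3.80 on the log2 scale. The IRX groups lay above the other groups on every day for each of these genes, and each kept its call when any 1 day was left out. Of all genes tested, 5.53% were called higher without D22, 0.962% without D24 and 1.2% without D26. The share of all genes that lay above on every day was not counted. Cells with a UMI of any of the 5 boundary genes numbered 441, 228 and 106 in all of D22, D24 and D26. IRX cells numbered 1420, 715 and 589, so most of them held no such UMI. Of the UMIs of the 5 genes, 908 of 963, 252 of 349 and 88 of 156 lay in IRX cells. Without the block of day, edgeR called none of the 21066 genes outside the split, 411 of which had an unadjusted p under 0.05, while DESeq2 with the block called all 5.

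Counted in the same cells, these 5 genes gave 113.5, 126 and 88 UMIs per HOX UMI on the 3 days in order. The ratios rest on 8, 2 and 1 HOX UMIs. The 5 genes are those called higher in these cells, so the ratios are a description and no further result. IRX4, which the split did not use, had 0, 6 and 5 UMIs in the IRX cells of D22, D24 and D26 and 0, 0 and 1 in the others, and IRX6 had 7, 3 and 4 against 0, 1 and 0. Both met the minimum of 10 UMIs only through the IRX cells, so the edgeR calls of both are no further result, and DESeq2 set no adjusted p for either. EGR2, a hindbrain segment factor that acts upstream of HOXB2, had 4 UMIs in the IRX cells of D22 (0.18 CPM) and 0 in those of D24 and D26.

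Most factors of the trunk and tail bud were low, and their levels did not all stay near 0. Of the 7 trunk and tail-bud genes, 2 could be tested by the IRX split and 0 were called over all days. NKX1-2 had a log2 fold change of 1.165 and TBX6 of -0.754. Without D22, NKX1-2 was called higher (1.375, adjusted p = 0.00587 by edgeR), as 5.53% of all genes were, and TBX6 was not called. CDX2 was at or below 0.0132 CPM in every library, and MSGN1, a gene of presomitic mesoderm, was at 0 in 7 of the 8. CDX4 was at 0.764 CPM at D0 and at or below 0.0172 CPM later. NKX1-2, a gene of the caudal neural plate, was at 6.81 CPM at D0 (517 UMIs in 358 of 1009 cells) and at 2.57 CPM at D26, and between 0 and 0.178 CPM in the other libraries. TBX6, a mesoderm factor, was at 0.238 to 0.749 CPM over the 8 libraries. The forebrain list went the other way, with 9 of 10 genes tested, 0 called higher and 5 called lower. LHX2, a selector of the forebrain and eye field, was at 157 CPM in IRX cells of D22 and at 254 CPM in the others, 217 and 398 CPM at D24 and 91.5 and 147 CPM at D26 (log2 fold change -0.84, SE 0.07, adjusted p = 0.00136 by edgeR). SIX3, OTX2 and EMX2 fell by 0.46, 0.61 and 0.94 on the log2 scale. SIX3 lost its call without D24 and OTX2 without D26. The other 4 tested genes of the list were not called, with log2 fold changes of 0.79 (HESX1), 0.23 (OTX1), -0.78 (EMX1) and -1.02 (RAX).

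Retinoid genes rose in part. Of 10 tested, 4 were called higher and 0 lower. CRABP1, which binds retinoic acid in the cytoplasm, was at 314, 964 and 527 CPM in IRX cells and at 51.6, 59.6 and 38.6 CPM in the others (log2 fold change 3.38, SE 0.23, adjusted p = 3.4e-04 by edgeR). NR2F1, NR2F2 and CYP26A1, which degrades retinoic acid, rose by 3.35, 3.04 and 2.85 on the log2 scale. CRABP1 and NR2F1 were markers of the IRX class in the study, so their rise is not independent of it. RARB, a direct target of retinoic acid, was not called (log2 fold change -0.12, SE 0.24, adjusted p = 0.917 by edgeR). Of the 9 HOX cofactors, PBX3 was called higher (log2 fold change 0.75) and MEIS2 lower (-0.57), and MEIS2 was not called without D24 or without D26.

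**Figure D3:**
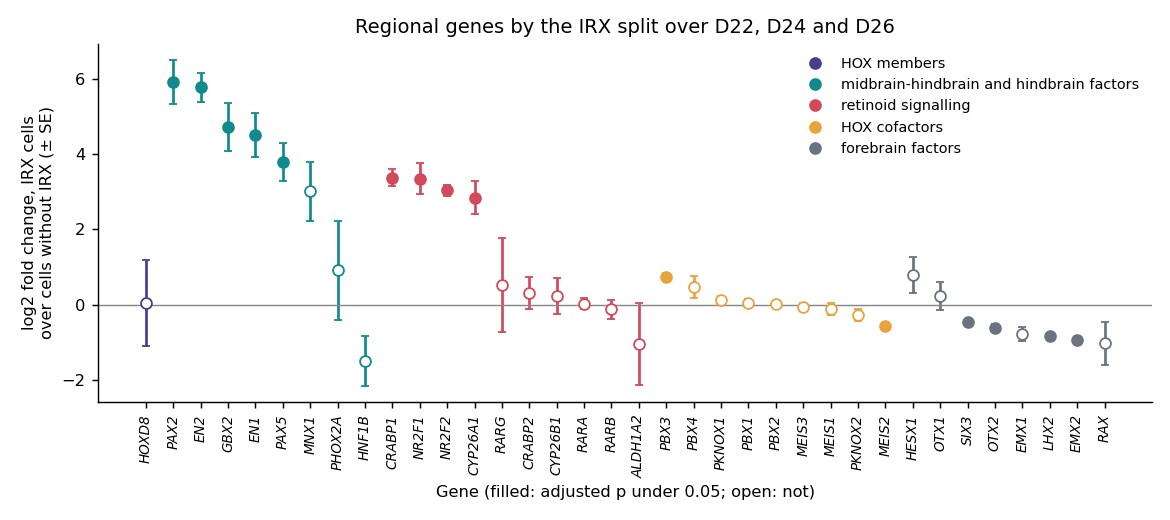
Log2 fold change between IRX cells and cells without IRX over D22, D24 and D26 (points, with SE bars) for tested genes of 5 lists; filled points passed an adjusted p under 0.05 by edgeR. HOXD8 sits at 0.05 with an SE of 1.14, while the 5 boundary genes sit between 3.80 and 5.92.

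Markers of other cell types were compared by the same split. The 3 markers of dividing progenitors were higher in IRX cells on each day. MKI67 was at 189 CPM in IRX cells and 137 CPM in the others at D22, at 28.3 and 1.73 CPM at D24 and at 11.4 and 0.44 CPM at D26, and TOP2A and HMGB2 went the same way. None of the 3 was called by edgeR over all days, with a median log2 fold change of 2.58. All 3 were called higher without D22, and DESeq2 called MKI67 but not TOP2A or HMGB2. Of the 4 markers of non-proliferating progenitors, 0 were called over all days (median log2 fold change 0.86). Without D22, NEUROG1, NEUROD1 and NEUROD4 were called higher and DLK1 was not called. The part of progenitors in the results above was not tested. Of the 9 neural crest and mesoderm genes, 7 were tested, FOXD3 and TFAP2B were called higher (log2 fold changes 4.32 and 5.37), FOXD3 not without D26, and SOX10, the defining crest marker, was at 0.0449 CPM in IRX cells of D22 and at 0 at D24 and D26. Of the 5 glutamatergic markers, PPP1R17, TBR1, LHX9 and LHX1 were called lower (log2 fold changes -0.90, -0.91, -0.91 and -0.40), LHX1 not without D24 or without D26. Of the 5 GnRH-GABA markers, 0 were called over all days. Without D22, GNRH1 was called lower (log2 fold change -0.45) and GAD2 and DLX2 higher (0.467 and 0.451), while DLX1 and DLX5 were not called.

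HOX levels in other splits of the same libraries were low as well. On each day the IRX cells had a higher HOX level than the cells of the 3 sets below. Their intervals overlapped with those of each set, and a cell may belong to several sets. Cells with UMIs of DLX1, DLX2, DLX5 or DLX6, genes of ventral forebrain neurons, a cell type known to lack HOX expression, were set beside these values. They held 2 HOX UMIs at D22 (0.095 CPM, interval 0.0115 to 0.343), 0 of 600 cells at D24 (0 CPM, interval up to 0.693) and 2 at D26 (0.0992 CPM, interval 0.012 to 0.358). As shares, 0.14% of 1424 DLX cells at D22 (interval 0.017 to 0.506%) had a HOX UMI, at a median of 12571.5 UMIs, against 0.563% of the IRX cells (interval 0.244 to 1.11%). Cells with PPP1R17 or TBR1 held 4 HOX UMIs at D22 (0.19 CPM), 8 at D24 (0.134 CPM) and 8 at D26 (0.095 CPM). These cells were 84% of the library at D24 and 83.2% at D26. Cells with MKI67 or TOP2A held 8 at D22 (0.138 CPM), 0 of 124 cells at D24 and 0 of 82 cells at D26.

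A split on the boundary genes themselves was added after the data were seen. At D22, 441 cells with EN1, EN2, GBX2, PAX2 or PAX5 held 4 HOX UMIs (0.553 CPM, interval 0.151 to 1.42) against 19 in the 9082 others (0.154 CPM, interval 0.0928 to 0.241). At D24, 228 such cells held 2 (1.05 CPM, interval 0.127 to 3.79), both in 1 cell, and at D26, 106 such cells held 0 (interval up to 2.89 CPM). The intervals of cells with and without boundary genes overlapped on each day.

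**Figure D4:**
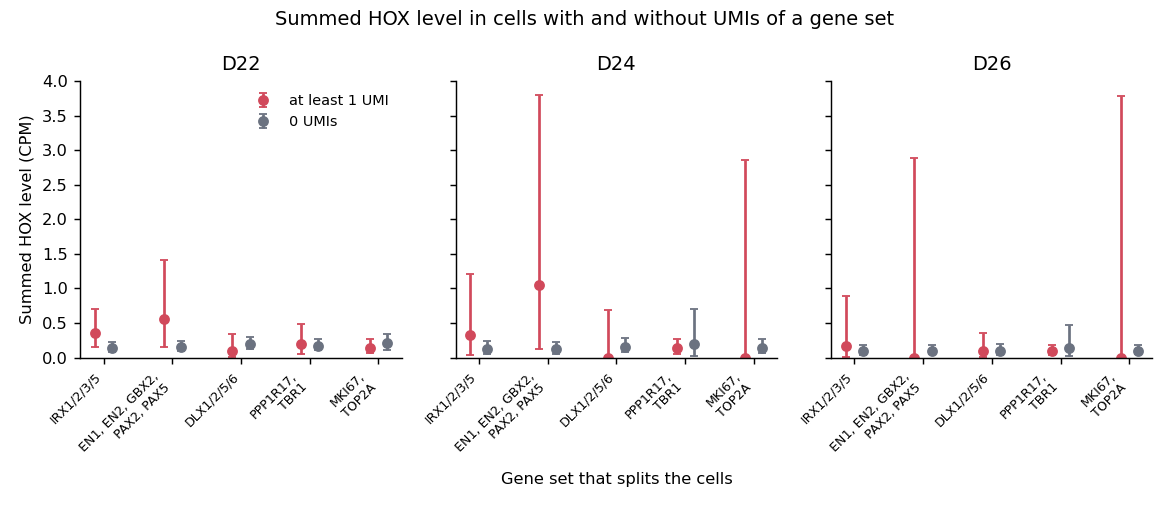
Summed HOX level in CPM (points, with exact Poisson intervals) in cells with at least 1 UMI of a gene set and in cells with 0, for 5 gene sets at D22, D24 and D26. The intervals of each pair overlap, and the widest belong to sets of 82 to 228 cells.

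XAV939 and the HOX genes were compared at D5 and D10. The summed HOX level was 0.0231 CPM in D5_XAV939 and 0.0377 CPM in D5_dSMADi (log2 ratio -0.71, interval -4.29 to 2.42), and 0.0861 and 0.0508 CPM at D10 (log2 ratio 0.76, interval -1.45 to 3.095). Each ratio rests on 9 UMIs or fewer, so no difference was detectable at this depth. No member had the 10 UMIs over both libraries needed for a ratio of its own. Of the genes that had them, 3.99% were at least 2-fold higher and 3.66% at least 2-fold lower with XAV939 at D5, and 4.26% and 7.93% at D10, with no replicate behind these counts. Of the midbrain-hindbrain list, 7 genes could be compared on each day. EN1 and EN2 were not among them. With XAV939 and without, EN1 had 0 and 1 UMIs at D5 and 0 and 0 at D10. EN2 had 0 and 1 at D5 and 4 and 1 at D10. PAX2 was at 4.74 CPM in D5_XAV939 and 0.264 CPM in D5_dSMADi (log2 ratio 4.17, interval 3.54 to 4.88), and at 0.568 and 0.178 CPM at D10 (1.68, interval 0.73 to 2.69). GBX2 was also past 2-fold higher at D5 (log2 ratio 1.83, interval 0.96 to 2.79), and GBX2 and PAX5 at D10 (log2 ratios 1.09 and 1.56). The GBX2 ratio at D10 rests on 11 UMIs against 7, and its interval held 0 (-0.41 to 2.70). MNX1, a motor neuron factor, was lower with XAV939 at D10 (0.465 and 1.03 CPM, log2 ratio -1.15, interval -1.83 to -0.50). The 9 HOX cofactors were all compared on both days, and 0 were past 2-fold. CDX1 and NKX1-2 of the tail bud were past 2-fold lower at D10, with 2 UMIs against 11 (log2 ratio -2.02, interval -5.24 to 0.18) and 5 against 14 (-1.05, interval -2.87 to 0.51), and both intervals held 0. Of the IRX genes, IRX1 was lower with XAV939 on both days (log2 ratio -1.69 at D5 and -1.47 at D10) and IRX3 at D10 (-1.34). ALDH1A2, which makes retinoic acid, was lower at D5 (log2 ratio -1.08, interval -1.73 to -0.45). The forebrain list moved both ways. At D5, SIX6 and LHX2 were higher (log2 ratios 2.53 and 1.42) and EMX2 and OTX1 lower (-3.12 and -1.20). At D10, 3 genes were higher, among them SIX3 and SIX6 (log2 ratios 1.88 and 3.49), and OTX1 was lower (-2.10).

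A single transcript of the HOX loci parted between the conditions. HOTAIRM1 (ENSG00000233429, chromosome 7 from 27095647 to 27100265, plus strand) is a non-coding RNA of the HOXA cluster, next to HOXA2, that retinoic acid is known to induce. It had 92 UMIs in D10_dSMADi (1.17 CPM, interval 0.942 to 1.43) and 3 in D10_XAV939 (0.0517 CPM, interval 0.0107 to 0.151). The log2 ratio was -4.50 (interval -6.80 to -2.91). HOTAIRM1 had 0 at D0 and in D5_dSMADi, 1 in D5_XAV939, 2 at D22 and 0 at D24 and D26. Of the 16 antisense, readthrough and other non-coding symbols of the HOX clusters, HOTAIRM1 was the only one with 10 UMIs over both libraries. The others had 2 UMIs or fewer in each library, with HOTTIP at 1 in D10_XAV939 and HOXD-AS2 at 2 at D0.

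HOTAIRM1 was spread thinly over the culture. It was in 80 of 2416 cells of D10_dSMADi (3.31%, interval 2.63 to 4.1%), with at most 3 UMIs in a cell, and in 3 of 2168 cells of D10_XAV939 (0.138%, interval 0.0285 to 0.404%). With each cell thinned to 10000 UMIs these shares were 1.08% (interval 0.704 to 1.57%) and 0.0922% (interval 0.0112 to 0.333%). The 80 cells held 0 UMIs of the 38 HOX members (interval up to 1.32 CPM), and the 2336 other cells of that library held 4. HOTAIRM1 was at 1.16 CPM in the cells of D10_dSMADi with IRX UMIs (interval 0.802 to 1.62) and at 1.17 CPM in those without (interval 0.891 to 1.52).

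RARB, whose promoter with the direct repeat is printed above, parted in the same direction. It was at 22.5 CPM in D10_dSMADi (1776 UMIs, interval 21.5 to 23.6) and at 0.844 CPM in D10_XAV939 (49 UMIs). Its log2 ratio was -4.74 (interval -5.18 to -4.33). RARB was at 0.69 and 0.61 CPM in the libraries of D5, and at 1.64, 2.18 and 2.47 CPM at D22, D24 and D26. Among the 20399 genes compared at D10, 6 had a lower ratio than RARB and 7 a lower ratio than HOTAIRM1. RARB had UMIs in 47.5% of the cells of D10_dSMADi and 2.21% of those of D10_XAV939, and in 20.2% and 0.738% after thinning to 10000 UMIs. Within D10_dSMADi, HOTAIRM1 was at 1.18 CPM in cells with RARB (interval 0.869 to 1.57) and at 1.15 CPM in cells without (interval 0.841 to 1.54). With 1776 UMIs of RARB in 2416 cells, a cell that lacked RARB and a cell in which it was missed cannot be told apart. RARB was the only gene of the 9 retinoid genes compared at D10 that was past 2-fold.

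Markers of cell types differed between the same D10 libraries. All 4 markers of non-proliferating progenitors were past 2-fold higher in D10_XAV939, with log2 ratios of 2.27 for NEUROG1, 2.98 for NEUROD1, 2.25 for NEUROD4 and 1.22 for DLK1. Of the 5 glutamatergic markers, TBR1, LHX9 and SLC17A6 were higher (1.91, 1.36 and 1.66), and of the 5 GnRH-GABA markers DLX1 and DLX5 were (1.56 and 1.14). Of the 7 neural crest and mesoderm genes compared, TFAP2A, TFAP2B and FOXC1 were higher (3.67, 2.90 and 1.87), TFAP2A with 592 UMIs against 63. At D5, SOX10, NEUROD4, DLX2 and PPP1R17 were lower with XAV939 (log2 ratios -2.12, -4.64, -2.58 and -1.19), and TWIST1, TBR1 and LHX9 were higher (1.61, 1.34 and 1.07), with intervals that held 0 for TWIST1 and TBR1. The part of these cell types in the differences of HOTAIRM1 and RARB was not tested.

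**Figure D5:**
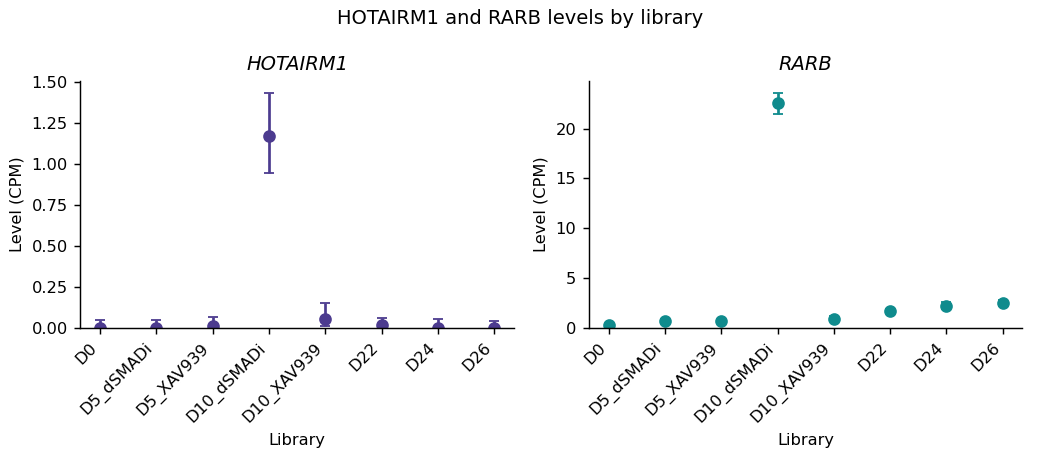
Levels of HOTAIRM1 and RARB in CPM (points, with exact Poisson intervals) in the 8 libraries, each on its own linear axis from 0. D10_dSMADi stands at 1.17 CPM for HOTAIRM1 and 22.5 CPM for RARB, above the 7 other libraries for both genes.

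Taken from the other side, cells with a HOX UMI were compared with all other cells at D22, D24 and D26 over 5482 genes. A gene entered only with at least 10 CPM in the HOX cells of each day, a level that a few UMIs give in 9 to 22 cells, so it entered through the group in which it is high. The genes with the highest lowest-of-3-days log2 ratio were S100A10 (1.86), ATF3 (1.61), EIF4EBP1 (1.13), RMC1 (0.99), SHMT2 (0.86), IL6ST (0.82), LYSMD3 (0.76), GARS (0.75), NRARP (0.75) and ZDHHC24 (0.74), with 10 CPM added to both levels. The HOX cells were 22, 9 and 10, and S100A10, an annexin partner, had UMIs in 7, 3 and 2 of them, at 45, 124 and 165 CPM against 5.2, 12.3 and 2.9 CPM in the other cells. ATF3, a stress-induced transcription factor, had UMIs in 2, 2 and 1 of them. GARS, the glycyl-tRNA synthetase, had UMIs in 16, 8 and 5 of them, and SHMT2, an enzyme of serine metabolism, in 13, 4 and 3. These ratios rest on so few cells that they are a description without a test.

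The labels of the libraries were checked on defining markers. POU5F1, the pluripotency factor, was at 1244 CPM at D0, at 14.5 to 26.6 CPM at D5 and D10 and at 0.207 to 0.513 CPM from D22. GNRH1 was at 5.85 CPM at D22, 1133 CPM at D24 and 3272 CPM at D26. Libraries held 1009 to 11056 cells and 58073098 to 130440502 UMIs after filtering. Libraries of the pool shared 0 barcodes with each other, and any other pair shared at most 0.54% of the smaller library's barcodes.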

How the data were processed

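WA09 human embryonic stem cells were profiled under 8 conditions by 10x Genomics 3′ single-cell RNA sequencing (Reagent Kit v3). The authors deposited UMI counts per gene and barcode, made with Cell Ranger on GRCh38 without normalization. The submitters' processing notes name Cell Ranger 3.1, while the headers of the 5 pooled files name a later version, with more genes listed. All levels here were computed from these counts. The 5 earlier conditions came as separate files of 1 pooled library, assigned by their day and the mark for XAV939.

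Cells were kept by the limits that the study states. At D22, D24 and D26 these were at least 1500 UMIs, at least 1000 genes, a complexity above 0.82 and a mitochondrial share under 20%. At D5 and D10 they were at least 10000 UMIs, at least 3000 genes and a mitochondrial share under 10%, with a complexity above 0.78 at D5 and between 0.82 and 0.9 at D10. At D0 they were at least 30000 UMIs, at least 5000 genes and a mitochondrial share under 10%. The stated complexity limit of D0 would leave 1 cell and was not applied. At D5 and D10 the study counted every deposited barcode as a cell (2480 in D5_dSMADi, 2919 in D5_XAV939, 2778 in D10_dSMADi and 2638 in D10_XAV939), while these limits leave 2419, 2815, 2416 and 2168. Results with all barcodes are an alternative. Doublets were scored with Scrublet in scanpy 1.11.5 and kept, except in an alternative without the top 5% of scores.

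The naming rule matches 39 symbols, of which 1 is not reported here, nor are a few genes of the lists by name. The members and gene lists were chosen with earlier results of these data known, and the lists stand on textbook roles. Named genes were every member, the genes of the lists past 2-fold or called, and the 10 genes of at least 10 CPM in HOX cells that were most like HOX. HOTAIRM1 belongs to a list, and RARB was paired with it after the values were seen. Levels are summed UMIs scaled to 1000000 UMIs (CPM) with exact Poisson intervals, shares have exact Clopper-Pearson ones, and a ratio has the interval of its UMIs' split by the exact binomial, all at 95% and for counting error alone. UMIs are taken as independent, which makes intervals narrow where few cells hold many. Cells are not replicates, and no test compares conditions. The IRX split was tested with edgeR 4.0.16 in R 4.3.3 (quasi-likelihood, TMM, genes with at least 10 UMIs over the 6 sums), and with DESeq2 1.42.0 as an alternative. The fit was tested on simulated data of this split with 21059 genes, where it called 95.6% of the 113 genes changed 2-fold with a mean over 100 UMIs, and 0.00958% of unchanged genes. The simulated counts had a fixed dispersion and no differences between days. They do not show how often a change would be called in genes with as few UMIs as the HOX members. Promoters were RefSeq's on GRCh38.p14. Alternatives to the filter, doublets, scaling, depth, block and split were tried.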

Additional observations from a re-analysis of the deposited data

Results flagged for a closer look

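NEUROD4, a proneural factor of neuronal precursors, was lower with XAV939 at D5 and higher at D10. The log2 ratio of XAV939 over dSMADi was -4.64 at D5 (interval -7.73 to -2.71, 2 and 46 UMIs) and 2.25 at D10 (interval 1.62 to 2.93, 95 and 27 UMIs), opposite directions on the 2 days with 1 sample for each condition. The difference between the days was not tested.

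The barcodes left out of D10_XAV939 by the filter on cells held 4 HOX UMIs, more than the 3 that a true count of 0 was taken to allow. They were 470 barcodes, which the study kept as cells, and the UMIs were of HOXA7, HOXB6, HOXD9 and HOXD13, at 0.242 CPM (interval 0.0658 to 0.619). The 362 barcodes left out of D10_dSMADi held 2, at 0.109 CPM (interval 0.0132 to 0.395), and the intervals overlapped.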

How the results depend on the processing

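Of 74 alternative values of the summed HOX levels, shares, ratios and member calls, 59 stayed within the interval of the reported value or kept its count, and 15 moved, in levels and shares with few UMIs. The 59 include fits in which 0 members were tested, where the count of calls could not change. With each cell thinned to 1500 UMIs, the summed level was 0.661 CPM at D0, from 1 UMI, and 0 CPM in D5_dSMADi, D5_XAV939, D10_dSMADi and D10_XAV939. Thinned shares of cells were 0% at D0 and in D5_XAV939 and D10_XAV939, 0.0414% in D10_dSMADi, 0.021% at D22, 0.011% at D24 and 0.00905% at D26, which follows from the fewer UMIs left. At D22 the level was 0.29 CPM when scaled without mitochondrial and the 100 most abundant genes, and 0.107 CPM without HOXD8. In D10_dSMADi it was 0.0127 CPM without HOXC4. No ratio by the IRX split could be given after thinning on any of the 3 days, or with at least 2 IRX UMIs at D24 and D26, since the IRX cells held 0 HOX UMIs.

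The count of members called by the IRX split was 0 under all 10 alternatives to the fit, in which 0 to 8 members were tested. With filterByExpr, without D22 and after thinning, 0 members were tested, so 0 calls were fixed in advance. HOXD8 was the only member tested in the other fits, except the fit with genes of at least 1 UMI. DESeq2 left the adjusted p of HOXD8 unset. HOXD8 had a log2 fold change between 0.03 and 0.55 in the 8 fits that held it. Over all genes but the 4 that set the split, 316 were called higher and 380 lower, against 0 and 0 without the block of day (411 of 21066 at an unadjusted p under 0.05), 558 and 492 by DESeq2, 150 and 151 with filterByExpr, 581 and 745 with genes of at least 1 UMI, and 204 and 505 after thinning. Leaving out a day gave 197 to 1070 called higher and 97 to 1169 called lower, the most without D22. The cause was not tested. For D10, all deposited barcodes or leaving out the highest doublet scores, both chosen after seeing the data, gave log2 ratios of -4.76 and -4.42 for HOTAIRM1 and -4.72 and -4.70 for RARB. Depth limits every HOX value, since a library held 2 to 23 HOX UMIs.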
